A study of Mus musculus with 8 samples.

Results

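RNA of mouse heart ventricles, taken at E12.5 in mid-gestation, was compared between embryos labelled NfatC1+/- with both Klf2 alleles floxed (mutant) and embryos labelled wild type. The comparison takes in 4 of the 8 samples of the series, 2 libraries from each genotype, chosen by the genotype and tissue in their titles. The other 4 libraries come from atrioventricular cushions of the same genotypes, and they entered the model to estimate the spread. All embryos are given as C57BL/6. A floxed allele carries recombinase sites around the part to be removed, and the labels do not say which recombinase acted in these embryos. What +/- stands for is also not said: it could be a lost copy of Nfatc1 or a recombinase placed in its locus, and the genotypes may thus differ at both genes. Since the design text sets the mutants beside a line with floxed Klf2, the controls may carry floxed alleles too. Neither the number of embryos per library nor their litters are given, so the spread between libraries may be technical.

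Klf2 encodes a zinc finger transcription factor of endothelial cells whose transcription rises with the drag of flowing blood. In endothelium it is known to favour an anti-inflammatory, anti-thrombotic state and to hold down adhesion molecules, and its relative Klf4 has overlapping functions. The ventricle at this stage has an outer epicardium, a myocardial wall with inner trabeculae, an inner endothelial lining called the endocardium, and young coronary vessels, and it encloses blood. RNA from the whole ventricle therefore mixes muscle, endothelial and blood RNA, and fewer cells of a type cannot be told apart from less RNA per cell.

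Klf proteins bind GC-rich sequences that include the letters CACCC. The promoters of 4 genes are shown because 2 of them, Klf2 and Cytl1, had the lowest p-values among genes lower in mutant ventricles, and Sele and Klf4 the lowest among genes higher there. Each is the 250 bases before the RefSeq transcription start on the plus or minus strand of GRCm38.p6, written 5′ to 3′ along the gene. Capitals mark CACCC or its reverse complement GGGTG. The positions are chr8:72318812-72319061 (plus) for Klf2, chr5:37735269-37735518 (plus) for Cytl1, chr4:55532476-55532725 (minus) for Klf4 and chr1:164047984-164048233 (plus) for Sele.
Klf2: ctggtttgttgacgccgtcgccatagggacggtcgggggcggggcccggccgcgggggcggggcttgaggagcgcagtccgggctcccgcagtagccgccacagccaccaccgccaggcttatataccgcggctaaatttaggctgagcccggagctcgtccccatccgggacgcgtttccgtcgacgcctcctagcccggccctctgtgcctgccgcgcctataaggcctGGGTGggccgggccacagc
Cytl1: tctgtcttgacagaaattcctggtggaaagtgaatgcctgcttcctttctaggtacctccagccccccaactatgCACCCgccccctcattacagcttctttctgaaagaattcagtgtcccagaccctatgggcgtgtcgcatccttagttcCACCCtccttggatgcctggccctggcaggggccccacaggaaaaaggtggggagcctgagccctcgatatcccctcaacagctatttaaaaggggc
Klf4: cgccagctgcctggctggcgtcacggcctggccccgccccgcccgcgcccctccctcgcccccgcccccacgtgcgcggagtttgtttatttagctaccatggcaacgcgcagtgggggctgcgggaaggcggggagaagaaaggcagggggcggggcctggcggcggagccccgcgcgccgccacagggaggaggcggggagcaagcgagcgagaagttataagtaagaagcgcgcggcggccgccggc
Sele: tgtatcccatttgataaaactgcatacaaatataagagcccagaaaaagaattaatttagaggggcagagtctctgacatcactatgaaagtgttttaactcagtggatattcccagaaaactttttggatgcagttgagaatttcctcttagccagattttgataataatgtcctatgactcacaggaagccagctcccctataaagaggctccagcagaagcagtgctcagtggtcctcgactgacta
The Klf2 promoter held 1 match, that of Cytl1 2 matches, and those of Klf4 and Sele 0 in this window. For scale, 57.9% of the 10373 tested genes with a promoter in the table held at least 1 match on either strand within the same 250 bases.

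Ventricle libraries held between 18955733 and 26579215 counts with 1 row kept per gene symbol, and 1 CPM (the unit of counts scaled to a common library size) stood for at least 18.7 reads. Myl2, the ventricular myosin light chain, was abundant in every library, at 6839 and 8311 CPM in wild type and 6746 and 9059 CPM in mutants. Ttn, the longest muscle transcript, took 6.48% and 5.70% of counts in replicate 1 of the wild type and mutant ventricle but 1.52% and 1.09% in replicate 2. The first principal component of the 4 libraries, with 58.2% of their variance, separated the replicates 1 from the replicates 2 and not the genotypes. Replicate numbers were therefore also fitted as a block (an additive term), and block values stand beside a result where they end or make a call. Every library held RNA of both sexes: Xist was at 477.2 and 228.7 CPM in wild type and 282.1 and 65.7 CPM in mutants, and the Y-linked Ddx3y at 85.1 and 90.5 CPM and at 100.8 and 101.9 CPM. The part of these differences in the results below was not tested. Of the defining liver and foregut markers, Alb was at 0.223 CPM or less, Nkx2-1 at 0 and Foxa2 at 2 reads or fewer. Other genes listed for lung, liver and foregut were expressed. The 7 measured ones summed to 35.3 and 29.5 CPM in wild type and 41.0 and 45.6 CPM in mutants.

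Klf2 RNA was nearly absent from mutant ventricles. It was at 11.7 and 9.19 CPM in the wild type libraries, from 219 and 174 reads, and at 0.736 and 0.625 CPM in the mutants, from 18 and 14 reads, so the mutants held 6.51% of the wild type mean. This gave -3.93 ± 0.45 (SE) on the log2 scale. In edgeR's quasi-likelihood fit over all 8 libraries, 0 of 14940 genes passed an adjusted p of 0.05, a share of 0%, and Klf2 had the lowest adjusted p, 0.269. At an unadjusted p under 0.05 there were 177 genes higher (1.18%) and 165 lower (1.1%) in mutants. These counts ran from 62 higher and 73 lower without mutant ventricle replicate 2 to 812 and 437 without mutant ventricle replicate 1. With the replicate block, 1 gene (0.00669%) passed, and it was Klf2, which fell with an adjusted p of 4.56e-05. DESeq2 also called Klf2 alone and limma-voom called 0 genes. Without wild type ventricle replicate 2 the blocked call on Klf2 ended, with an adjusted p of 0.0634.

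Nfatc1, which encodes a transcription factor of the endocardium, showed no separation of the genotypes. Its level was 18.5 and 7.87 CPM in wild type and 17.4 and 6.83 CPM in mutants, so that replicate 1 exceeded replicate 2 in each genotype and the groups overlapped. The fold change was -0.12 ± 0.61 (SE, log2), and it turned positive in 3 of the alternatives.

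A fit of the 4 ventricle libraries alone with the block (hereafter the fit of the ventricle alone), which leaves 1 residual degree of freedom per gene and borrows the spread across genes, called 45 of 14321 genes (0.314%), 23 higher and 22 lower. Among these 45, only Klf2 passed over all 8 libraries with the block, and 0 passed without it. Xist was called with an adjusted p of 7.61e-17 although its genotypes overlapped, so adjusted p-values of this fit may be too small. Over all genes tested, both mutant libraries lay above both wild type libraries in 13.1% and below both in 14.6%, shares that stand beside the counts of genes without overlap given for each list. The 12 genes with the lowest p in each direction in the fit over 8 libraries are described as ranked genes. Of these, 7 higher and 4 lower ones were also called in the fit of the ventricle alone. Both fits hold the same ventricle libraries, so the second call is no separate support.

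**Figure D1:**
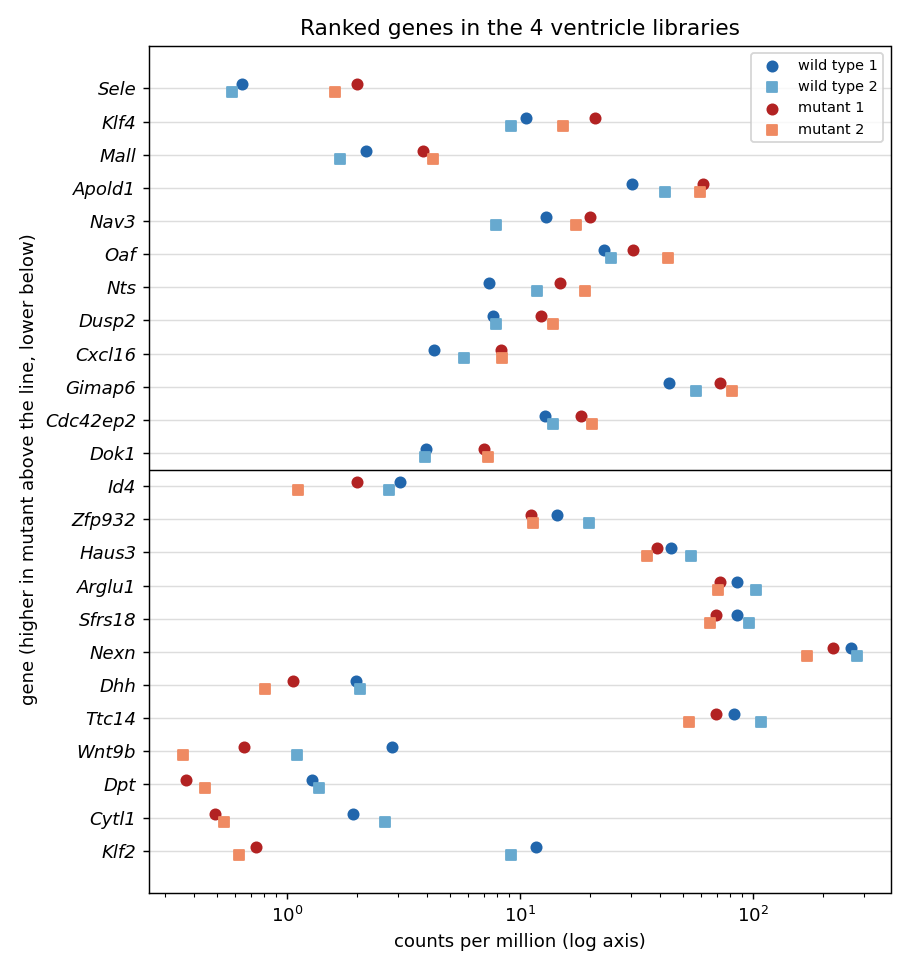
Levels in CPM (log axis) of the 12 genes with the lowest p in each direction, 1 symbol per library, circles for replicate 1 and squares for replicate 2, wild type in blue and mutant in red. Klf2, at the bottom, shows the widest gap, from 9.19 to 0.736 CPM, while most other genes differ by less than 2-fold.

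Sele, Klf4 and Mall had the lowest p among the ranked genes higher in mutants. Sele encodes E-selectin, an adhesion molecule that inflamed endothelium displays to leukocytes. It was at 0.641 and 0.581 CPM in wild type and at 2.002 and 1.61 CPM in mutants, with a log2 fold change of 1.56 ± 0.32 (SE), and it passed in neither fit (adjusted p = 0.0545 in the ventricle alone). Klf4 was at 10.6 and 9.19 CPM in wild type and 21.0 and 15.3 CPM in mutants, so the lower mutant library still exceeded both controls. Its log2 fold change was 0.88 ± 0.19 (SE), with an adjusted p of 0.00159 in the fit of the ventricle alone. Over 8 libraries with the block it did not pass (adjusted p = 0.20). Apold1, an early response gene of endothelial cells, was at 30.2 and 42.0 CPM against 61.2 and 59.3 CPM. In the fit of the ventricle alone it rose with an adjusted p of 1.14e-04. Cxcl16, a chemokine made as a membrane protein, was at 4.28 and 5.75 CPM in wild type and 8.29 and 8.35 CPM in mutants. Dusp2, a phosphatase that switches off MAP kinases, was at 7.64 and 7.92 CPM against 12.3 and 13.9 CPM. Nts, the gene of neurotensin, was at 7.38 and 11.9 CPM against 14.9 and 19.0 CPM, and the higher wild type value stayed below the lower mutant one. The other ranked genes were Mall, Nav3, Oaf, Gimap6, Cdc42ep2 and Dok1, with log2 fold changes from 0.53 for Cdc42ep2 to 1.06 for Mall.

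The lowest p among the ranked genes lower in mutants, after Klf2, belonged to Cytl1, Dpt, Wnt9b, Ttc14 and Dhh, and of these only Ttc14 was above 3 CPM in wild type. Cytl1, which encodes a small secreted protein and marks endocardium, was at 1.92 and 2.64 CPM in wild type and 0.490 and 0.536 CPM in mutants. The difference was -2.14 ± 0.36 (SE) in log2, and the adjusted p was 3.55e-04 in the fit of the ventricle alone but 0.20 over 8 libraries with the block. Wnt9b, a WNT ligand of valve endocardium, was at 2.83 and 1.11 CPM against 0.654 and 0.357 CPM, a log2 fold change of -1.94 ± 0.47 (SE) that passed only in the fit of the ventricle alone (adjusted p = 0.00468). Dpt, the gene of the matrix protein dermatopontin, was at 1.28 and 1.37 CPM against 0.368 and 0.447 CPM. Dhh, the hedgehog ligand desert hedgehog, was at 1.98 and 2.06 CPM against 1.06 and 0.804 CPM.

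Wnt9b and Dpt belong mainly to the cushion. The wild type cushion level of Wnt9b was 34.7 CPM, and the log2 difference of wild type ventricle from cushion was -4.21 for Wnt9b and -5.08 for Dpt. Other ranked genes lower in the ventricle by more than 1 were Sele (-2.66), Dhh (-2.29), Nts (-1.58), Id4 (-1.24), Cxcl16 (-1.22) and Klf4 (-1.05). Nexn was higher in the ventricle (1.56). The 24 measured genes of a cushion mesenchyme list summed to 4045 and 1702 CPM in wild type and 3878 and 1376 CPM in mutant ventricles, with Vcan, a matrix proteoglycan, at 3023 and 1058 CPM against 2934 and 853.1 CPM. Within this list 19 of 24 genes were below 0, with a median of -0.26 (-0.16 in replicate 1 and -0.30 in replicate 2), and 1 was higher and 2 lower without overlap. With the block, 0 were higher and 6 lower at an unadjusted p under 0.05, beside 510 higher and 578 lower of all 14940 genes. The median was -0.92 without mutant ventricle replicate 1 and 0.24 without wild type ventricle replicate 1. The part of attached cushion tissue in the values of Wnt9b, Dpt, Sele, Dhh, Nts, Id4, Cxcl16 and Klf4 was not tested. Cytl1 and Klf2 differed little between the wild type tissues, by -0.43 and -0.52 on the same scale.

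The remaining ranked lower genes were Ttc14, Nexn, Sfrs18, Arglu1, Haus3, Zfp932 and Id4. Ttc14 was at 83.3 and 108.4 CPM in wild type and 69.6 and 53.4 CPM in mutants. Nexn, which encodes nexilin of the Z-disc, was at 262.7 and 278.9 CPM against 219.4 and 171.2 CPM, a log2 fold change of -0.47 ± 0.15 (SE). Transcripts of the 12 lower genes had 43.2% GC in the median, and the 12 higher genes 50%. Fold change rose with GC content across genes (Spearman rho 0.458 over 14748 genes, a description, as genes are not independent replicates). This trend came from replicate 2, with rho 0.576 between its mutant-minus-wild-type difference and GC content, against 0.011 in replicate 1. Once GC content and length were corrected for, the fold change of Haus3 shrank from -0.41 to -0.19 and that of Arglu1 from -0.39 to -0.21, while Sele (1.59), Klf4 (0.79) and Cytl1 (-2.22) kept theirs.

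**Figure D2:**
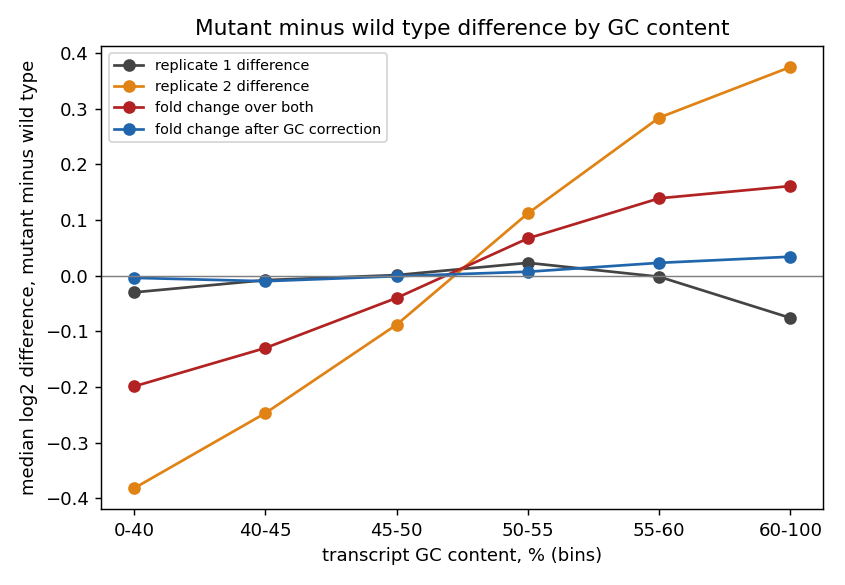
Median log2 difference, mutant minus wild type ventricle, of genes in 6 bins of transcript GC content (percent), for replicate 1, replicate 2, the fold change over both, and that fold change after correction. Replicate 2 climbs from -0.38 in the lowest bin to 0.38 in the highest, replicate 1 stays between -0.08 and 0.02, and the corrected line lies within 0.034 of 0.

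The endothelial genes were compared next, in 9 lists. Genes common to all endothelium were mostly higher in mutants: 37 of the 44 measured were above 0 and 7 below, and 18 were higher and 2 lower without overlap (40.9% and 4.55%, beside 13.1% and 14.6% of all genes). The median log2 fold change was 0.20, against -0.01 over all genes tested, and 0 passed over all 8 libraries, with or without the block. At an unadjusted p under 0.05 there were 8 higher and 1 lower. The median was 0.21 in replicate 1 and 0.20 in replicate 2, and it stayed between 0.20 and 0.34 in all alternatives run, with the highest value without wild type ventricle replicate 1.

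Pecam1, the junction protein CD31, was at 217.9 and 212.2 CPM in wild type and 271.9 and 299.7 CPM in mutants, which gave 0.41 ± 0.15 (SE) on the log2 scale. Tie1, an endothelial receptor tyrosine kinase, was at 104.3 and 95.0 CPM against 123.9 and 159.7 CPM, with a log2 fold change of 0.51 ± 0.18 (SE). Icam2, an adhesion molecule of resting endothelium, was at 33.1 and 35.4 CPM against 42.4 and 60.6 CPM. Both Tie1 and Icam2 rose in the fit of the ventricle alone, with adjusted p = 0.0353 and 0.0229. The correction for GC content and length took their log2 fold changes from 0.51 and 0.59 to 0.40 and 0.45. The median of the list was 0.24 with that correction. Bcl6b, a transcriptional repressor of endothelium, was at 28.1 and 28.6 CPM against 38.9 and 38.3 CPM, among the tightest of these differences.

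Among the receptors for VEGF and angiopoietin, the genotypes did not overlap for Flt4 and Tek but overlapped for Kdr and Flt1. Non-overlap did not follow the size of the change, as the log2 fold change was 0.26 for Kdr, 0.21 for Flt1 and smallest for Tek. Kdr, the main VEGF receptor, was at 299.9 and 177.4 CPM in wild type and 344.2 and 225.6 CPM in mutants, so the groups overlapped although the mutant was the higher at each replicate number. Flt1 was at 79.7 and 44.1 CPM against 91.9 and 51.0 CPM, with the same layout. Tek, the angiopoietin receptor, was at 343.9 and 329.7 CPM against 360.8 and 364.1 CPM, a log2 fold change of 0.11 ± 0.12 (SE). Flt4, the VEGF-C receptor, was at 23.7 and 17.4 CPM against 29.5 and 29.7 CPM, a log2 fold change of 0.53 ± 0.18 (SE). In a list of 17 genes that holds VEGF and TIE ligands and other angiogenic factors of the myocardium, 0 were higher and 5 lower without overlap (29.4%, beside 14.6% of all genes), with a median of -0.10 that was 0.03 without wild type ventricle replicate 1. With the correction for GC content and length the median of this list was -0.05. Angpt1 was at 217.0 and 271.2 CPM against 204.1 and 214.6 CPM, and Vegfa overlapped.

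Lists for subtypes of endothelium were smaller and their medians depended on single libraries. The 16 endocardial genes split 8 and 8, with a median of -0.04 that ran from -0.29 without mutant ventricle replicate 1 to 0.29 without wild type ventricle replicate 1. Npr3, a natriuretic peptide receptor of the endocardium, was at 591.2 and 587.0 CPM in wild type and 703.4 and 650.7 CPM in mutants, while Cytl1 lay far below its controls. Among 14 coronary and capillary genes, 5 were higher and 1 lower without overlap (35.7% and 7.14%), with a median of 0.12 (0.40 without mutant ventricle replicate 1). Aplnr, the apelin receptor of coronary precursors, was at 13.8 and 12.9 CPM against 23.2 and 23.3 CPM, and it rose in the fit of the ventricle alone (adjusted p = 0.00188). Arterial and Notch genes had a median of 0.08 (0.002 in replicate 1 and 0.28 in replicate 2, and from 0.03 to 0.30 without mutant or without wild type replicate 1), with the connexin gene Gja4 at 10.2 and 11.3 CPM against 12.8 and 17.2 CPM. Venous and lymphatic genes had a median of 0.12, which was -0.001 without wild type ventricle replicate 2 and 0.28 without wild type ventricle replicate 1. In that list Lyve1, a hyaluronan receptor of lymphatic endothelium and of some macrophages and endocardium, was at 8.45 and 9.56 CPM against 16.4 and 18.4 CPM, a log2 fold change of 0.95 ± 0.33 (SE). Lyve1 rose in the fit of the ventricle alone, with an adjusted p of 3.55e-04.

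Genes that Klf2 or blood flow is known to raise lay on both sides of 0. Of 25 measured, 12 were above and 13 below, with a median of -0.03. Without overlap, 6 were higher (24%) and 7 lower (28%), beside 13.1% and 14.6% of all genes. The 7 include Klf2 itself and the ranked genes Wnt9b and Dhh, and the 6 include the ranked Klf4. As the list was chosen with earlier results of these data known, no excess over all genes can be read from these shares. With the block, 3 were higher and 6 lower at an unadjusted p under 0.05, beside 510 higher and 578 lower of all 14940 genes. Thbd, the anticoagulant thrombomodulin, was at 18.3 and 14.1 CPM in wild type and 12.1 and 9.29 CPM in mutants, a log2 fold change of -0.60 ± 0.27 (SE). Nos3, the endothelial nitric oxide synthase, was at 41.8 and 30.3 CPM against 42.2 and 40.9 CPM, and the groups overlapped. Hmox1, heme oxygenase 1, was higher, at 8.45 and 9.35 CPM against 11.2 and 14.2 CPM. Of the 16 measured Krüppel-like factors, Klf2 included, 1 was higher (Klf4) and 2 lower (Klf2 and Klf11) without overlap. Klf6 was at 148.9 and 167.9 CPM against 167.0 and 161.7 CPM.

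Genes of inflamed endothelium, a state that Klf2 is known to oppose, had a median of 0.25 over 14 measured members. Without overlap, 6 were higher and 1 lower (42.9% and 7.14%, beside 13.1% and 14.6% of all genes). The list holds the ranked Sele and was chosen with earlier results of these data known, so no excess can be read. The median was 0.39 without wild type ventricle replicate 1. Sele heads them. Ptgs2, cyclooxygenase 2, was at 0.428 and 0.317 CPM against 0.776 and 1.03 CPM, and the chemokine gene Ccl2 at 2.35 and 2.48 CPM against 4.25 and 3.88 CPM. Icam1 was at 11.3 and 10.03 CPM against 12.9 and 14.5 CPM, with a log2 fold change of 0.36 ± 0.30 (SE). Vcam1, which the myocardium and epicardium also express, overlapped at 181.7 and 183.4 CPM against 187.3 and 151.1 CPM. A further 6 listed genes, Selp and Il6 among them, had too few reads to be tested.

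The Gimap genes, GTPases of lymphocytes that endothelium also expresses, were higher in 6 of 6 measured. Without overlap, 4 were higher (66.7%, beside 13.1% of all genes). The list holds the ranked Gimap6 and was chosen with earlier results of these data known, so no excess can be read. Gimap6 was at 43.6 and 57.1 CPM in wild type and 72.0 and 80.9 CPM in mutants, with a log2 fold change of 0.60 ± 0.17 (SE). Gimap4 was at 25.7 and 27.9 CPM against 38.1 and 40.9 CPM. Both rose in the fit of the ventricle alone (adjusted p = 0.00254 and 0.0465). The list median was 0.48 in ventricle and 0.56 in cushion. These genes lie next to each other in the genome and are not independent of each other.

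**Figure D3:**
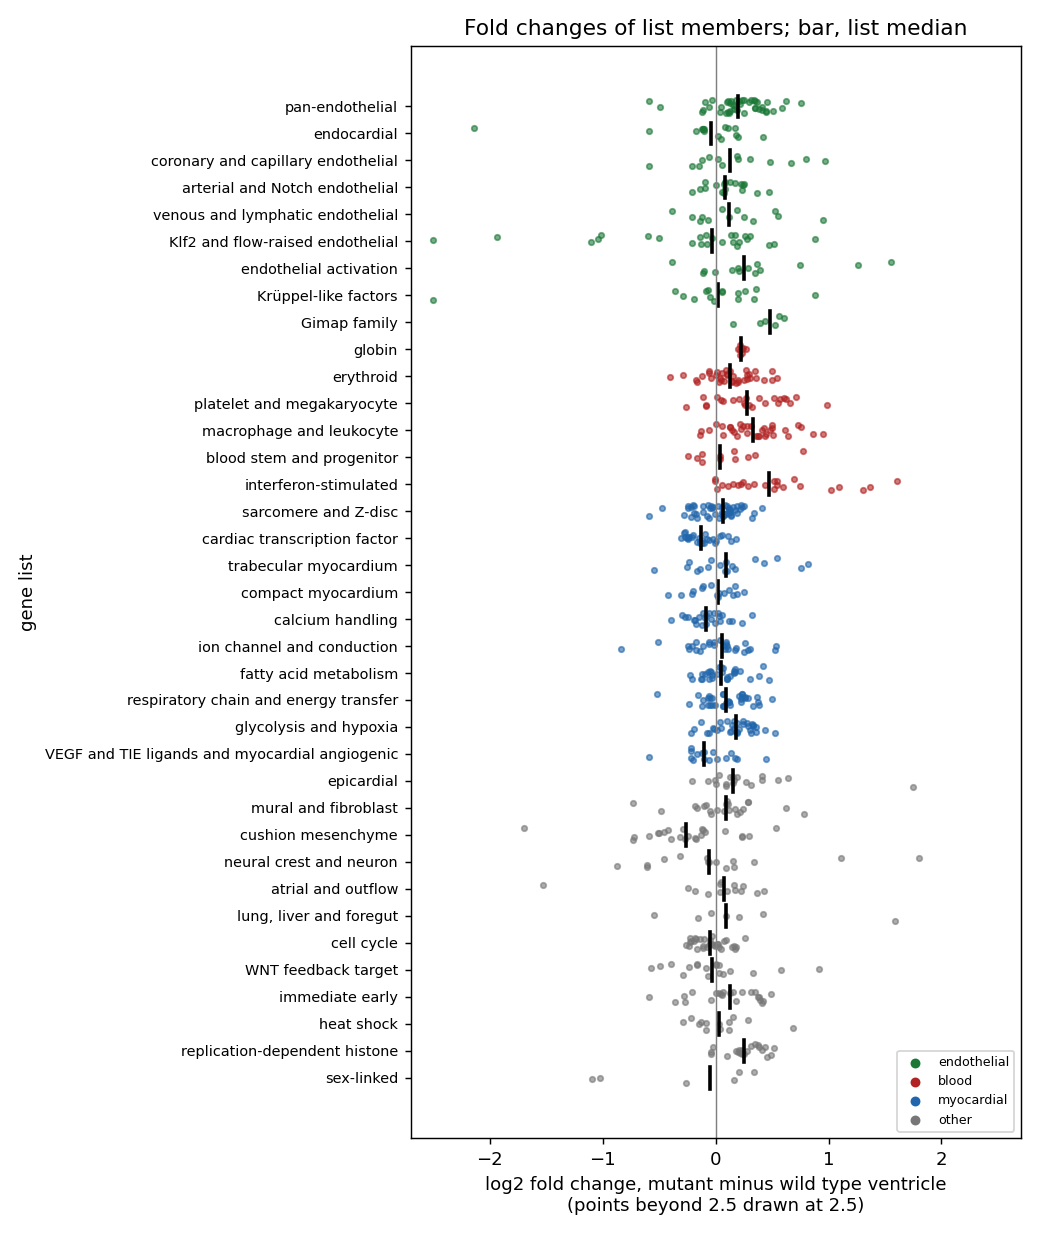
Log2 fold change, mutant minus wild type ventricle, of each measured member of 37 gene lists (points, coloured by class) with the list median as a black bar. The pan-endothelial, Gimap, platelet and macrophage lists lie to the right of 0 (medians 0.20, 0.48, 0.28 and 0.33) and the sarcomere list at 0.06.

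Blood was examined by lineage. Globin genes gave the widest spread between replicates and no separation of genotypes. Hbb-y, an embryonic beta globin, was at 5805 and 2015 CPM in wild type and 6774 and 2287 CPM in mutants. Replicate 1 was nearly 3-fold above replicate 2 in each genotype, while the mutant exceeded the wild type by little at each number. All 8 measured globin genes were above 0 and 0 were separated. The median of 0.23 was below the spread between replicates of the list, 0.94 (SD), and it ran from -0.51 to 1.15 over the alternatives. Hba-a1 and Hba-a2 had the same counts in every library, as had Hbb-b1 and Hbb-b2, so the copies were not told apart.

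Other red cell genes followed the same layout. Of 37, 4 were higher and 1 lower without overlap (10.8% and 2.7%, near or below the shares over all genes). Slc4a1, the anion exchanger of the red cell membrane, was at 99.2 and 25.1 CPM in wild type and 102.1 and 31.3 CPM in mutants. Alas2, the first enzyme of heme synthesis in red cells, was at 75.8 and 27.3 CPM against 87.4 and 30.7 CPM.

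Platelet and megakaryocyte genes were higher more often. Of 24, 20 were above 0, and 7 were higher and 1 lower without overlap (29.2% and 4.17%). Itga2b, the platelet integrin CD41, was at 14.1 and 8.18 CPM in wild type and 16.8 and 15.1 CPM in mutants, a log2 fold change of 0.52 ± 0.25 (SE). Treml1, a platelet receptor, was at 2.35 and 1.58 CPM against 3.80 and 4.02 CPM, and Clec1b at 7.002 and 5.02 CPM against 9.52 and 9.47 CPM. Gp1bb overlapped at 1.55 and 1.85 CPM against 1.63 and 1.79 CPM. The list median was 0.28, with a spread between replicates of 0.31 (SD), and 0 members passed. The median was 0.08 and 0.11 without mutant replicate 1 or wild type replicate 2 of the ventricle, and 0.55 and 0.67 without mutant replicate 2 or wild type replicate 1.

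Macrophage and leukocyte genes leaned higher too. Of 34, 31 were above 0, and 10 were higher and 0 lower without overlap (29.4%). Csf1r, the macrophage growth factor receptor, was at 16.0 and 14.3 CPM in wild type and 17.8 and 21.4 CPM in mutants. Fcgr3, an antibody receptor, was at 3.37 and 3.59 CPM against 5.23 and 7.41 CPM, with a log2 fold change of 0.86 ± 0.33 (SE). Ptprc, the pan-leukocyte CD45, overlapped at 3.37 and 4.70 CPM against 4.004 and 4.11 CPM. The list median of 0.33 rested more on replicate 2 (0.56) than on replicate 1 (0.13), and it was 0.14 without mutant ventricle replicate 2 and 0.52 without mutant ventricle replicate 1. Lyve1 and Pf4 are counted in this list and also in an endothelial or platelet list.

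Interferon-stimulated genes had a median log2 difference of 0.96 in replicate 2 and -0.20 in replicate 1, and 2 of 24 were higher without overlap. Usp18, an interferon-induced brake on the interferon receptor, was at 1.28 and 0.739 CPM in wild type and 1.10 and 4.15 CPM in mutants, so that 1 mutant library was high and the other lay within the wild type range.

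**Figure D4:**
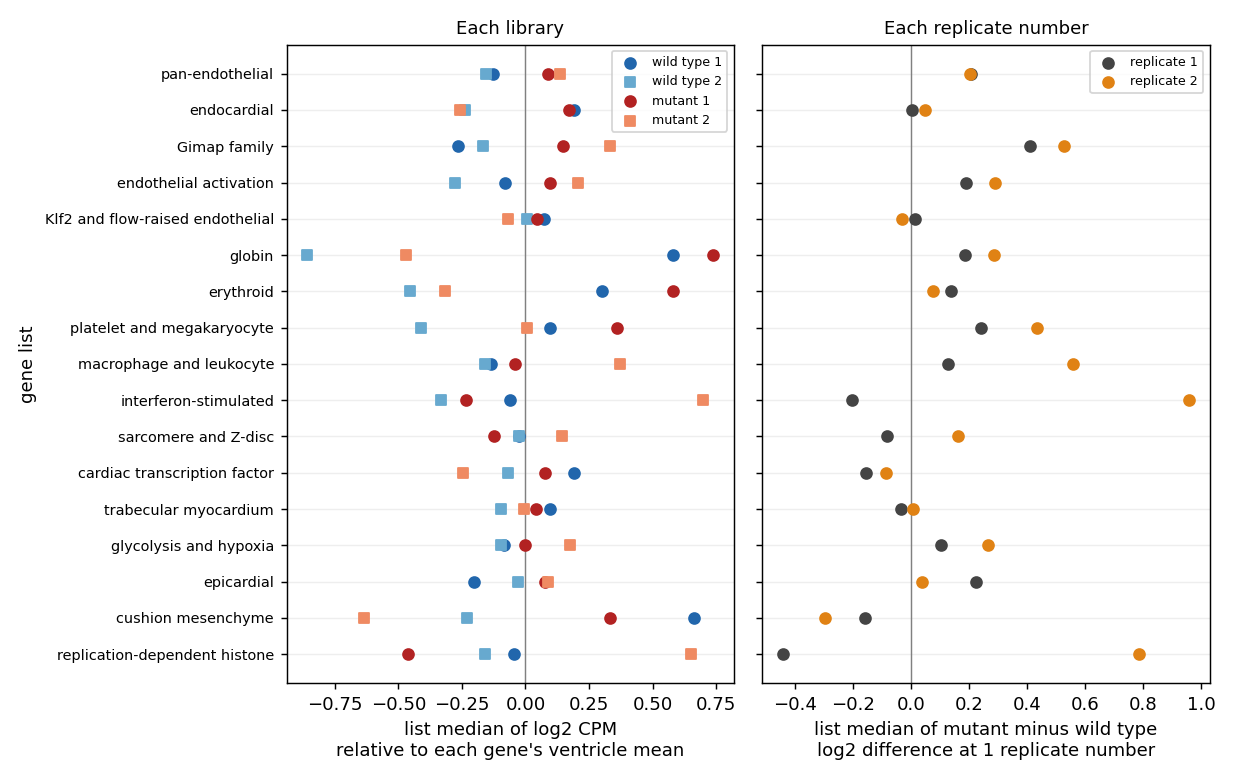
Left, list medians of log2 CPM relative to each gene's mean over the 4 ventricle libraries, by library; right, list medians of the mutant minus wild type log2 difference at each replicate number. Pan-endothelial and Gimap genes have both mutants to the right of both controls, globin genes sort by replicate number, and the medians of interferon and histone genes differ in sign between the replicate numbers.

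The myocardium showed no common shift of its contractile genes. Of 54 sarcomere and Z-disc genes, 32 were above and 22 below 0, with 3 higher and 4 lower without overlap (5.56% and 7.41%), and the median was 0.06, with a spread of 0.13 (SD), and -0.08 without mutant ventricle replicate 2. Tnnt2, cardiac troponin T, was at 1868 and 2182 CPM in wild type and 1744 and 2486 CPM in mutants. Myh7, the beta myosin heavy chain, was at 11270 and 6070 CPM against 10770 and 8345 CPM, and Actc1, cardiac actin, at 8373 and 10110 CPM against 8549 and 10760 CPM. In each the groups overlapped. Nexn had the lowest p in the list.

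Cardiac transcription factor genes were below 0 in 22 of 28, with 0 higher and 4 lower without overlap (14.3%, near the 14.6% of all genes), and their median of -0.13 was 0.08 without wild type ventricle replicate 1. Mef2c was at 238.1 and 243.2 CPM in wild type and 229.0 and 189.1 CPM in mutants, and Tbx5 at 35.8 and 29.6 CPM against 27.4 and 27.9 CPM. Gata4 overlapped at 159.1 and 129.0 CPM against 152.9 and 131.4 CPM. Calcium handling genes had a median of -0.08 (0.05 without wild type ventricle replicate 1), with Pln, the brake on the sarcoplasmic calcium pump, at 1594 and 2354 CPM against 1547 and 1674 CPM.

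Trabecular genes did not separate, with 0 higher and 1 lower of 18. Nppb, the B-type natriuretic peptide, which wall stress is known to raise, was at 168.1 and 306.4 CPM in wild type and 264.6 and 535.2 CPM in mutants. The wild type replicate 2 exceeded the mutant replicate 1, but the mutant was the higher at each replicate number, and Nppb rose in the fit of the ventricle alone with the block (adjusted p = 3.21e-05), though not in the fit over 8 libraries (0.75 ± 0.81, SE, log2). Nppa, the A-type peptide, was at 1295 and 1565 CPM against 1350 and 2490 CPM. Of the 16 genes of compact myocardium, 0 were higher and 1 lower without overlap, namely Mycn, a growth regulator, at 38.8 and 40.1 CPM against 34.7 and 34.0 CPM.

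Glycolysis and hypoxia genes were above 0 in 27 of 34, with 14 higher and 1 lower without overlap (41.2% and 2.94%) and a median of 0.18. Ldha, lactate dehydrogenase A, was at 1256 and 1388 CPM in wild type and 1409 and 1726 CPM in mutants, and Ndrg1, a gene induced by low oxygen, at 12.6 and 11.2 CPM against 17.1 and 17.2 CPM. Hif1a was the 1 lower. The median was 0.10 in replicate 1 and 0.26 in replicate 2, and 0.10 without mutant ventricle replicate 2. Respiratory chain genes had 3 higher and 3 lower of 37, and fatty acid genes 5 higher and 2 lower of 30, with Cpt1b, the muscle carnitine transferase, at 279.1 and 301.3 CPM against 283.4 and 365.5 CPM. Cell cycle genes had 6 higher and 8 lower of 32.

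Epicardial genes, which mark the outer layer of the ventricle, were above 0 in 16 of 19, with 9 higher and 1 lower without overlap (47.4% and 5.26%). Their median was 0.15, and 0.32 without wild type ventricle replicate 2. Krt19, a keratin of mesothelium, was at 30.5 and 27.4 CPM in wild type and 35.1 and 55.1 CPM in mutants, and it rose in the fit of the ventricle alone (adjusted p = 0.0148). The defining transcription factors showed less: Wt1 was at 25.2 and 31.7 CPM against 31.0 and 32.2 CPM, and Tbx18 was lower, at 122.0 and 114.4 CPM against 112.6 and 92.3 CPM. Mural and fibroblast genes had 2 higher and 1 lower of 22.

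The ranked genes were set beside the same comparison in cushions, which uses other libraries. Of the 12 genes higher in mutant ventricles, 9 had a cushion fold change above 0. Of the 12 lower ones, 5 were below 0 there: Klf2 (-3.54), Wnt9b (-2.32), Dpt (-1.67), Cytl1 (-1.42) and Dhh (-0.56). The other 7 lower genes were above 0 in cushions. The test of the difference between tissues, an interaction in edgeR, passed for 0 genes, with or without the block, and the lowest adjusted p was 0.415 without it and 0.0852 with it. At an unadjusted p under 0.05 it gave 1776 genes, and 3594 with the block. Fold change ran against GC content in cushions (rho -0.607) and with it in ventricles (0.458), and the 12 lower genes include AT-rich ones, so the part of GC content in this split was not tested. WNT feedback genes had a median of -0.04 in ventricles and -0.47 in cushions. Axin2, which WNT signalling induces, was at 3.26 and 2.48 CPM in wild type and 3.02 and 2.10 CPM in mutant ventricles.

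**Figure D5:**
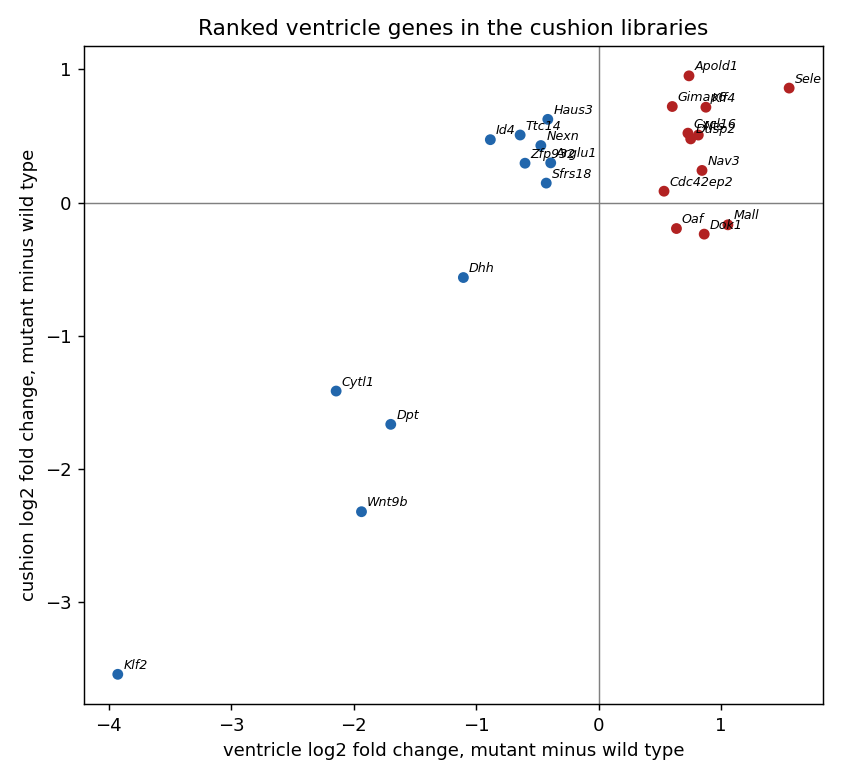
Log2 fold change, mutant minus wild type, in cushions (vertical axis) against ventricles (horizontal axis) for the 24 ranked genes, red where higher and blue where lower in mutant ventricles. Klf2, Wnt9b, Dpt, Cytl1 and Dhh lie in the lower left, 9 of the 12 higher genes in the upper right, and 7 lower genes above 0 on the cushion axis.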

How the data were processed

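Total RNA of embryonic ventricles and cushions was sequenced after removal of ribosomal RNA with a stranded kit, per the labels' protocols. The submitters' processing notes name Bowtie 0.12.7 and the mouse build mm9, while how reads were counted, with which annotation and strand setting, is not stated there or in the labels. The authors deposited whole-number counts per row, in 8 tables of the same content, and 1 was read. It has 28644 rows and 22869 symbols, and 3705 occur on several rows, of which the one with most counts was used. Library totals over the kept rows set the depth, and their counting error is small beside the spread between replicates. Genes that overlap on opposite strands, and near-identical copies, are uncertain.

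The test was edgeR (4.0.16, R 4.3.3), quasi-likelihood: TMM scaling, filtering by expression in groups (14940 symbols, 99.97% of counts), robust fit over 8 libraries in 4 groups, two-sided tests, Benjamini-Hochberg adjustment and a threshold of 0.05. The standard error is the log2 fold change over the root of F. Libraries of a group differed by more than counting noise and were kept as 2 (chi-square per degree of freedom 92.1 in wild type and 113.5 in mutant ventricle).

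Replicate numbers pair samples only as seen in the data: the deviations of replicate 1 correlated across genes in all 6 pairs of groups (Pearson r 0.341 to 0.522, and 0.464 between the ventricle groups). DESeq2 1.42.0 and limma 3.58.1 served as alternatives, with others on scaling, filtering, rows, GC content, samples and block.

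A total of 863 entries in 37 gene lists were looked up, 851 found and 806 tested. Genes named are Klf2, Nfatc1 and Wnt9b, the 12 lowest p in each direction with a ventricle group mean of at least 1 CPM (predicted genes and small RNAs left out), each list's core genes and up to 5 further members with the lowest p. Others, such as Klf11 and Hif1a, were named after their values were seen. The genes compared and the lists were chosen with earlier results of these data known. List counts and medians are descriptions. Transcript length and GC content came from GENCODE vM21 (98.2% of symbols matched) and promoters from RefSeq GRCm38.p6, matched by symbol; no coordinates of the counts' own build were used. The fits over 8 libraries, with and without the block, were also run on simulated counts that held no replicate effect. The fit of the ventricle alone was not run on them.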

Additional observations from a re-analysis of the deposited data

How the results depend on the processing

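Under 18 alternatives, the number of genes passing in ventricles stayed between 0 and 1 except with the replicate block in a fit of fewer libraries. The replicate block, DESeq2, the ventricle libraries alone and the GC correction with the block each called 1 lower gene, Klf2, and the GC correction alone called 0. The ventricle libraries alone with the replicate block called 23 higher and 22 lower. Leaving out 1 library at a time gave 0 higher and 0 to 1 lower genes, and with the block 0 to 5 higher and 0 to 9 lower ones. The most lower calls came without mutant ventricle replicate 1, and the 5 higher ones without either mutant cushion library. Klf2 was at -3.94 with the block (also in DESeq2), -3.92 and -3.91 in the ventricle alone with and without it, -4.07 with the GC correction and block, and from -4.09 to -3.71 with libraries left out. In the blocked fit that range was -4.09 to -3.74, and the call ended at -3.80 without wild type ventricle replicate 2. The cause of these shifts was not tested.

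The pan-endothelial median was 0.24 with the GC correction, with and without the block, and 0.20 to 0.34 with libraries left out. The platelet median ranged from 0.082 to 0.67 and the sarcomere median from -0.083 to 0.11. Of 37 list medians, 27 took the other sign under some alternative. The pan-endothelial, activation, Gimap, platelet, macrophage, glycolysis and epicardial medians were among the 10 that did not.

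Of 88 named genes with alternatives, 60 reversed under none. With libraries left out, the ranges of log2 fold change of the others crossed 0: Nfatc1 -0.95 to 0.65 (0.016 with rows summed), Actc1 -0.11 to 0.23, Alas2 -0.75 to 1.14, Alb -1.57 to 1.19, Axin2 -0.45 to 0.077, Cpt1b -0.034 to 0.34, Flt1 -0.28 to 0.72, Gata4 -0.16 to 0.17, Gp1bb -0.085 to 0.14, Hba-a1 and Hba-a2 -0.34 to 1.24, Hbb-b1 and Hbb-b2 -0.51 to 1.15, Hbb-y -0.78 to 1.20, Kdr -0.079 to 0.71, Klf6 -0.003 to 0.14, Myh7 -0.24 to 0.68, Myl2 -0.17 to 0.27, Nos3 -0.006 to 0.48, Nppa -0.083 to 0.81, Pln -0.52 to 0.016, Ptprc -0.19 to 0.27, Slc4a1 -0.99 to 1.44, Tnnt2 -0.22 to 0.30, Ttn -2.02 to 1.28, Vcam1 -0.27 to 0.038, Vcan -1.26 to 0.87 and Vegfa -0.23 to 0.17. With the GC correction, Actc1 was at -0.038 (-0.036 with the block), Gp1bb at -0.13 (-0.13) and Vcam1 at 0.048 (0.048), and Vegfa was at 0.001 with no filter. With 2 libraries a group, genes at 1 CPM rest on about 20 reads a library, and those below 1 CPM on fewer. Sele in wild type and Cytl1, Dpt and Wnt9b in mutants are among the latter.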

Other observations

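The fit of the ventricle libraries alone with the replicate block also called genes that the text has not yet described. Malat1, an abundant nuclear non-coding RNA, was at 5945 and 5580 CPM in wild type and 4348 and 2703 CPM in mutants, and it fell with an adjusted p of 1.17e-06. Mir17hg, the host transcript of a microRNA cluster, was at 14.7 and 27.7 CPM against 10.8 and 11.4 CPM (adjusted p = 0.00144). Mstn, the gene of myostatin, which limits muscle growth, was at 6.79 and 4.12 CPM against 3.31 and 1.34 CPM (adjusted p = 0.00306). Jam2, a junction adhesion molecule, was at 14.1 and 11.99 CPM against 9.07 and 4.11 CPM (adjusted p = 3.69e-04). In each, the mutant libraries lay below both controls, and mutant replicate 2 was the lowest of the 4 except for Mir17hg.

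Among those that rose in that fit, Tgfbi, a matrix protein gene, was at 102.1 and 60.1 CPM in wild type and 142.8 and 100.4 CPM in mutants, so the groups overlapped. Stab1, a scavenger receptor of sinusoidal endothelium and macrophages, was at 116.3 and 61.8 CPM against 146.7 and 102.3 CPM, and Ocln, a tight junction gene, at 3.58 and 5.65 CPM against 8.25 and 9.15 CPM. Col4a1, a basement membrane collagen gene, was at 782.5 and 395.5 CPM against 905.6 and 669.2 CPM. Xist and its antisense Tsix were also called lower there, with strand not told apart. Their adjusted p, 7.61e-17 and 6.87e-08, were the lowest in that fit after Klf2, although the genotypes overlapped for both. In the edgeR fit over 8 libraries their unadjusted p were 0.254 and 0.165. Replication-dependent histone genes had a median of -0.44 in replicate 1 and 0.79 in replicate 2. These genes were chosen after their values were seen.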
